A study of Mus musculus with 34 samples.

Results

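The livers described here came from wild-type (WT) mice at 24 hours after partial hepatectomy (PHx) and from WT mice at 0 hours, and they were chosen by their labels alone. There were 4 livers at 24 hours and 6 at 0 hours, 10 of the 34 livers of the study, and all 14980 genes with enough counts were compared. The WT mice carried loxP-flanked Sirt1 alleles without the Villin-Cre transgene, which in the knockout mice of the study (SIRTintKO) removes Sirt1 from the intestinal epithelium. All were males of C57/Bl6 background, 8 to 12 weeks old. PHx removed 70% of the liver, the left lateral and median lobes, so the tissue read at 24 hours was the remnant. The 0 hour livers came from untreated animals and not from sham-operated ones, so effects of surgery and anesthesia cannot be told apart from those of tissue loss. Libraries at 0 hours also bear numbers of a separate range from those after PHx, and any difference in how the 2 sets were handled would coincide with the effect of PHx. Values of further groups of the study are given only where named. These were 6 WT livers at 6 hours and, for the SIRTintKO mice, 6 livers at 0 hours and 7 at 24 hours. All 34 livers, including 5 SIRTintKO livers at 6 hours, entered the 1 fit behind the gene filter, SE and p-values. The paper's figure legends give other numbers of WT livers at 6 and 24 hours than the labels, which were followed here. The library number of WT 6 hour liver 6 lies among those of the 24 hour livers.

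After PHx, hepatocytes of the remnant leave quiescence, a step that is primed by IL-6 family cytokines acting through the transcription factor STAT3. Growth factors that bind the receptors EGFR and MET then carry them through the G1 phase of the cell cycle, in which cyclin D1 rises, and DNA synthesis and mitosis come after it. Meanwhile the remnant keeps up plasma protein, bile acid, glucose and nitrogen metabolism, and hepatocytes store fat for a time.

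Depth was alike in both groups, with 16335963 to 19561395 counts per library at 24 hours and 15191477 to 18400084 at 0 hours. Values per gene are given as CPM, the counts of a gene relative to the total of its library, scaled by the trimmed mean of M-values (TMM), and genes are compared with themselves and not with each other, since CPM are not corrected for length. Alb, the main plasma protein made by hepatocytes, was at 18910.4, 15025, 18774 and 24980.1 CPM in livers 1 to 4 at 24 hours, so the tissue was liver as labeled. Exocrine pancreas genes were near 0, with sums of 0, 3.2, 0.209 and 0.199 CPM. Transcripts of the mitochondrial genome took 5.35% to 6.94% of counts at 24 hours and 7.55% to 9.02% at 0 hours, and their part in the results was not tested. Among the 0 hour livers replicate 2 stood apart, with 1333 genes over 2-fold from the others, and without it 2400 genes were called in place of the 2354 given below.

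In WT livers 24 hours after PHx, 2354 of the 14980 genes (15.7%) were called, 1246 higher (8.32%) and 1108 lower (7.4%) than at 0 hours. A gene was called at an adjusted p under 0.05 in edgeR's quasi-likelihood test and a log2 fold change over 1 in either direction. All log2 fold changes against 0 hours below come from this test, with their SE. Without the fold-change threshold, 5113 genes had an adjusted p under 0.05. Values of the 4 livers and the 6 livers did not overlap for 2887 genes (19.3%), higher for 1405 (9.38%) and lower for 1482 (9.89%), and among the called genes this held for 548 of the higher and 770 of the lower ones. Without liver 2 the count of called genes was 1552, and without liver 1, 3 or 4 it was 1730, 3005 or 3117.

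The 4 livers differed widely from each other. Set against the mean of the 0 hour livers, 4772 genes in liver 1 and 5816 in liver 2 were over 2-fold away, but only 1656 in liver 3 and 1605 in liver 4. A 0 hour liver set against the other 0 hour livers had 520 to 1333 such genes, and the 6 WT livers at 6 hours had 2715 to 3409. Livers 1 and 2 thus lay farther from the 0 hour livers than any liver at 6 hours did, and livers 3 and 4 lay closer. The first principal component over the 10 livers held 60.1% of the variance, and the livers at 24 hours scored 116, 134, 11.3 and 3.55 on it, against -53.2 to -28.2 at 0 hours. The common biological coefficient of variation (BCV), the typical relative spread of a gene between livers, was 0.484 at 24 hours and 0.208 at 0 hours. It was 0.268 in WT livers at 6 hours and 0.359 in SIRTintKO livers at 24 hours. Total counts do not follow this split, as livers 1 to 4 had 16335963, 19561395, 18076933 and 18160013 counts. The make-up of the libraries does follow it. The 10 genes with the most counts took 23.4%, 25.2%, 17.8% and 17.2% of counts in livers 1 to 4, against 17.3% to 18.3% at 0 hours. The TMM factors of livers 1 to 4 were 0.996, 0.895, 1.06 and 1.11. The part of these differences in the results was not tested.

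**Figure D1:**
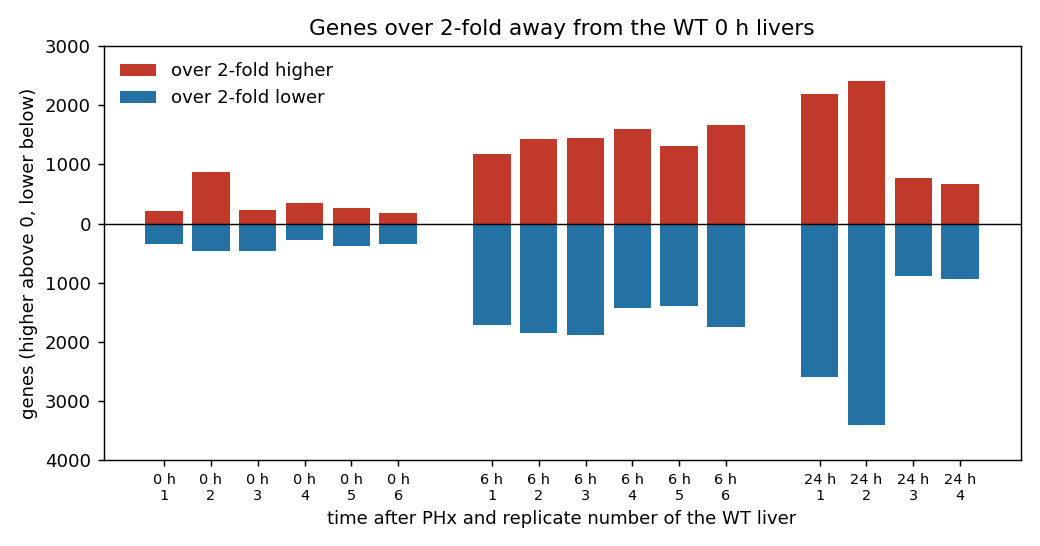
Number of genes over 2-fold higher (bars above 0) and lower (bars below 0) than the mean of the WT 0 hour livers, on log2 CPM with a prior count of 2, in each WT liver at 0, 6 and 24 hours; a 0 hour liver is set against the other 0 hour livers. At 24 hours livers 1 and 2 reach 2184 and 2412 higher genes, while livers 3 and 4 stay at 775 and 676.

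Of the 1246 genes called higher, 621 (49.8%) were over 2-fold higher in livers 1 and 2 and in neither of the other livers, and 256 (20.5%) were over 2-fold higher in all 4 livers. Of the 1108 genes called lower, 384 (34.7%) were over 2-fold lower in livers 1 and 2 alone and 387 (34.9%) in all 4 livers. The pattern with livers 3 and 4 alone held for 11 higher (0.883%) and 5 lower genes (0.451%). Values are therefore given liver by liver for the genes described most closely below. Where a gene has only a fitted log2 fold change, that value averages livers that had moved far and livers that had moved less. Counts of called genes in a list are read against the shares over all genes, 8.32% higher and 7.4% lower.

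The genes of acute-phase plasma proteins, which hepatocytes secrete after injury, had a median above that of every 0 hour liver in each of the 4 livers. Of 21 measured, 19 were called higher and none lower, against the 8.32% of all genes, and the count was 18 to 20 when any 1 of the livers at 24 hours was left out. Their median log2 difference from 0 hours was 2.81, 2.67, 2.14 and 2.07 in livers 1 to 4, whereas the 0 hour livers lay at -0.30 to 0.41. The 2 members that were not called were Crp, which encodes C-reactive protein, at a log2 fold change of -0.70 ± 0.42, and Lbp, which encodes the carrier of bacterial lipopolysaccharide, at 0.92 ± 0.19.

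Serum amyloid A genes encode apolipoproteins of inflamed plasma. Saa1 was at 22922, 29929.9, 14937 and 13412 CPM in livers 1 to 4, against a lowest, median and highest value of 169.7, 387 and 1769.9 CPM at 0 hours (log2 fold change 5.04 ± 0.58, adjusted p = 2.91e-07). Saa2 was at 28737, 35278, 18685 and 15921 CPM, against 36.6, 151 and 1224 CPM at 0 hours (log2 fold change 6.24 ± 0.75, adjusted p = 5.98e-07). For both genes every liver at 24 hours lay above every liver at 0 hours, and liver 2 was highest. Lcn2, which encodes lipocalin 2, a protein that binds bacterial siderophores, was at 12583, 7802, 2442 and 1789 CPM, against 7.45, 17.5 and 39.3 CPM at 0 hours (log2 fold change 8.26 ± 0.65, adjusted p = 3.63e-10). Livers 1 and 2 were highest here, and the groups again did not overlap. Orm2, an orosomucoid that carries lipids and drugs in plasma, was at 3225, 1094, 808 and 698 CPM, against 16.7, 28.1 and 40.6 CPM at 0 hours (log2 fold change 5.64 ± 0.60, adjusted p = 7.92e-08). Fgb, the fibrinogen beta chain, was at 22444, 34005, 13539 and 11829 CPM, against 4340.3, 5785 and 7454 CPM (log2 fold change 1.78 ± 0.21, adjusted p = 4.67e-07). Fgb was highest in liver 2, and its lowest value at 24 hours stood clear of the highest at 0 hours. Saa1 and Saa2 are near-identical neighbors that share reads, so the division of counts between them is uncertain.

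The bases before the start of 4 of these genes are shown because the members moved together in every liver, and binding sites of C/EBP factors and of STAT3 in such promoters are textbook features of the acute-phase response. Each line gives the 250 bases before the start in RefSeq, build GRCm38.p6, read 5′ to 3′ on the strand of the gene. Capitals mark a match on either strand to CTGGGAA, the core of the IL-6 response element, or to TTGCNNAA, a C/EBP site.
Saa1 (chr7:46742981-46743230, minus strand): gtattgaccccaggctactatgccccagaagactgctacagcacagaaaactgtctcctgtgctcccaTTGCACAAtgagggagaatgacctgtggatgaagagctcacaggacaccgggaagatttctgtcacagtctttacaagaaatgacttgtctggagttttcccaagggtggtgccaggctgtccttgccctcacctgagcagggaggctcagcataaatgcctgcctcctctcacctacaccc
Saa2 (chr7:46751583-46751832, plus strand): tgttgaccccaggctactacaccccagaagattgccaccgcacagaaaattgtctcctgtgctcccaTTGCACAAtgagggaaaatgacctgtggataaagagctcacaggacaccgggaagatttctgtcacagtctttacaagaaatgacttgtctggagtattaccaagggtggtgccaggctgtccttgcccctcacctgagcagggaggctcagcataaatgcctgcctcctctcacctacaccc
Lcn2 (chr2:32387740-32387989, minus strand): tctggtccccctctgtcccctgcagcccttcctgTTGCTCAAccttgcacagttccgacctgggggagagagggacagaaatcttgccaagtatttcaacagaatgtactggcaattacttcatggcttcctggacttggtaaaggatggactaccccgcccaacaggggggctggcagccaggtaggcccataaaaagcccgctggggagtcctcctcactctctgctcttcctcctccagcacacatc
Fgb (chr3:83049864-83050113, minus strand): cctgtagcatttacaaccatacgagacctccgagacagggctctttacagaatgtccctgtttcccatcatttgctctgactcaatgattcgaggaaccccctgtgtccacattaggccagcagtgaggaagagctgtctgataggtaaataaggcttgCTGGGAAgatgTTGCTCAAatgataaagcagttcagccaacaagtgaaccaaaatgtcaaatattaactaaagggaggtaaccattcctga
TTGCNNAA was in 10 of the 17 list members with a RefSeq promoter (58.8%) and in 9.56% of all 32851 promoters. The 10 include Saa1, Saa2 and Saa3 and also Orm2 and Orm3, and matches within such a gene family are not independent. Each member was searched at the first promoter given for its symbol, while the 32851 include every promoter given. CTGGGAA was in 3 of the 17 (17.6%) and in 9.1% of all. In Fgb both motifs are present without overlap, and in Saa1, Saa2 and Lcn2 only the C/EBP motif is present in this window. A match is a description of the letters only.

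**Figure D2:**
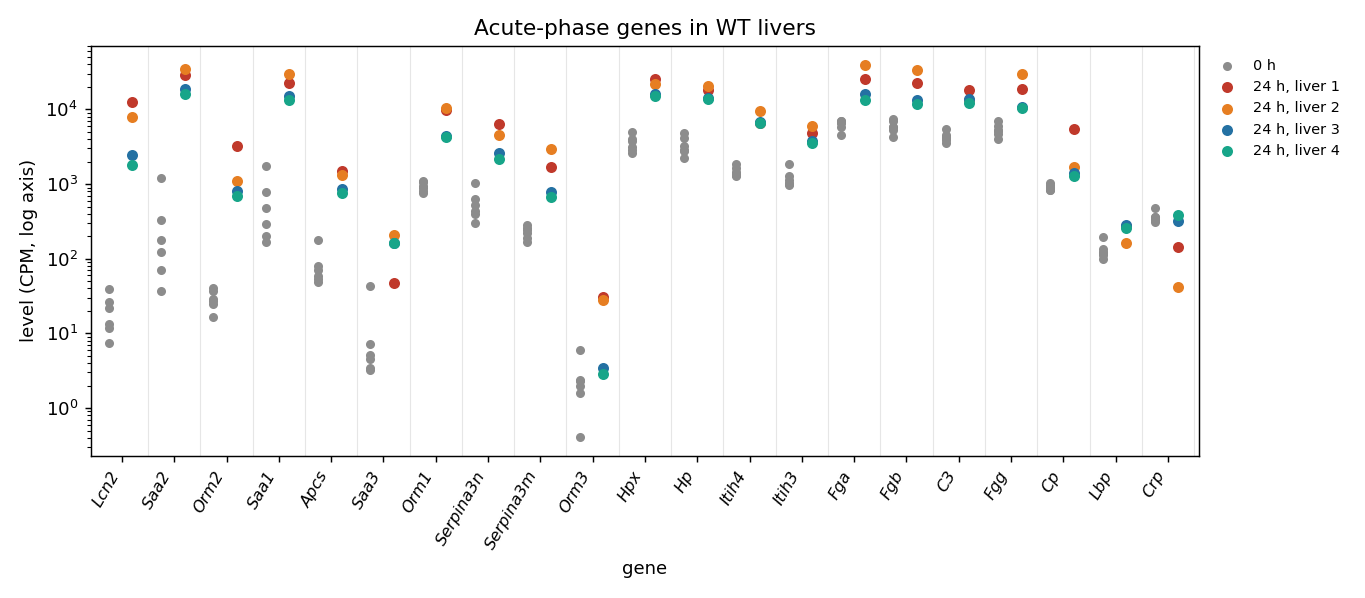
Level of the 21 acute-phase genes in each WT liver at 0 hours (gray) and 24 hours (colors, numbered 1 to 4), in CPM on a log axis. In 18 of the 21 genes the livers at 24 hours lie apart from those at 0 hours.

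Upstream of these genes, Osmr, the receptor chain for oncostatin M, was at 49.4, 23.4, 12.1 and 11.7 CPM, against 2.52, 3.46 and 10.8 CPM at 0 hours (log2 fold change 2.37 ± 0.35, adjusted p = 1.08e-05). Stat3 was at 315, 314, 186 and 169 CPM, against 85.0, 101 and 179 CPM (log2 fold change 1.16 ± 0.19, adjusted p = 3.85e-05), and liver 4 lay within the range of the 0 hour livers. The top of that range was 0 hour liver 2, which stood apart, and 24 hour liver 4 lay above the other 0 hour livers. Socs3, the feedback inhibitor of STAT3 signaling, was at 244, 265, 49.1 and 55.7 CPM, against 13.5, 36.3 and 96.8 CPM (log2 fold change 1.65 ± 0.57, adjusted p = 0.0245). In livers 3 and 4 it was within the range at 0 hours. Il1rn, the IL-1 receptor antagonist, rose by 5.12 ± 0.86 on the log2 scale (adjusted p = 5.07e-05) and Il1r1, the receptor itself, by 1.81 ± 0.32 (adjusted p = 8.18e-05). Lifr, the receptor of leukemia inhibitory factor, was called lower (log2 fold change -1.91 ± 0.31, adjusted p = 3.78e-05), and Il6st, the shared chain gp130, was not called (log2 fold change 0.20 ± 0.16, adjusted p = 0.328). In all, 5 of 14 genes of the IL-6 family and STAT3 were higher and 1 lower, against 8.32% and 7.4% of all genes. Mt2, a metallothionein that binds zinc and copper, was at 2668, 3846, 1172 and 1378 CPM, against 8.11, 113 and 838 CPM (log2 fold change 3.34 ± 0.80, adjusted p = 0.00201), with no overlap of the groups. Hamp, the iron hormone hepcidin, rose (log2 fold change 1.12 ± 0.42, adjusted p = 0.038), while its paralog Hamp2 fell (log2 fold change -4.34 ± 0.74, adjusted p = 6.18e-05). Mt1 and the zinc importer Slc39a14 were also called higher, so that 4 of 10 genes of iron and metals were higher and 1 lower. Socs3 was no longer called without 24 hour liver 1 or 2 or 0 hour liver 3, 4 or 5 (adjusted p = 0.0504 to 0.141). Hamp was no longer called without 24 hour liver 1, 2 or 4 or 0 hour liver 1, 3, 4, 5 or 6 (adjusted p = 0.0541 to 0.117).

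Drug oxidation and conjugation are tasks of the hepatocyte. Of the 21 drug-metabolizing Cyp genes measured, 12 were called lower, against 7.4% of all genes, and 1 higher. The median log2 difference from 0 hours was -2.18, -2.02, -0.75 and -0.87 in livers 1 to 4 and -0.46 to 0.25 among the 0 hour livers. Cyp1a2, which oxidizes caffeine and aromatic amines, was at 7.81, 35.99, 65.6 and 52.0 CPM, against 397, 629 and 678 CPM at 0 hours (log2 fold change -3.86 ± 0.53, adjusted p = 3.42e-06). Cyp2e1, which oxidizes ethanol, was at 466, 1185, 2072 and 2060.1 CPM, against 3223, 5206 and 5738 CPM (log2 fold change -1.76 ± 0.41, adjusted p = 0.00163). All 4 livers lay below the 0 hour livers for both genes. Cyp2c50, Cyp2f2 and Cyp3a11 were called lower as well, with log2 fold changes of -3.63 ± 0.64, -2.22 ± 0.36 and -1.64 ± 0.40. The exception was Cyp2b10, a target of the nuclear receptor CAR, at 3.07, 4.46, 6.28 and 8.76 CPM against 0.0641, 2.11 and 2.88 CPM (log2 fold change 1.75 ± 0.68, adjusted p = 0.0437), which was highest in liver 4. Of 14 genes of conjugation and antioxidant defense 5 were lower, all glutathione transferases, among them Gsta2 (log2 fold change -2.60 ± 0.57) and Gsta3 (-2.52 ± 0.52), and 2 higher, the antioxidant genes Srxn1 (1.5 ± 0.34) and Hmox1 (1.66 ± 0.50). Without liver 2 the count of lower transferases was 3. Cyp2b10 was no longer called without 24 hour liver 2, 3 or 4 or 0 hour liver 1, 4 or 6 (adjusted p = 0.0589 to 0.112). Hmox1 was no longer called without 24 hour liver 1 (adjusted p = 0.199).

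Car3 and Selenbp2, a carbonic anhydrase and a selenium-binding protein of hepatocytes, were among the 10 genes with the largest falls, counted over called genes with a mean of at least 1 CPM and no overlap of the groups. Car3 was at 1.11, 9.37, 65.2 and 91.3 CPM, against 1892, 2952 and 3852 CPM at 0 hours (log2 fold change -6.14 ± 1.02, adjusted p = 4.1e-05). Selenbp2 was at 2.64, 59.2, 136 and 211 CPM, against 1634, 2815 and 3856 CPM (log2 fold change -4.78 ± 0.88, adjusted p = 0.000131). Liver 1 was lowest and livers 3 and 4 highest in both, and no liver reached the range of the 0 hour livers. Hsd3b5, a steroid dehydrogenase of male liver that depends on growth hormone, was at 0, 0.286, 7.38 and 13.1 CPM, against 157, 211 and 240.3 CPM (log2 fold change -5.33 ± 0.99, adjusted p = 0.000146). Inmt, an amine methyltransferase, was at 0.553, 10.9, 9.58 and 17.7 CPM, against 196, 289.7 and 344 CPM (log2 fold change -4.87 ± 0.84, adjusted p = 7.02e-05). Mup2, of the urinary proteins, was called lower too (log2 fold change -5.22 ± 1.49, adjusted p = 0.00769), but it is one of a family of near-identical copies whose reads may be split, and its lowest, median and highest values at 0 hours were 5.06, 69.96 and 169 CPM. Ghr, the growth hormone receptor, was at 48.5, 48.7, 152 and 166 CPM, against 329.9, 431 and 445 CPM (log2 fold change -1.99 ± 0.30, adjusted p = 1.13e-05). In sum, 4 of 12 genes of the growth hormone axis were lower and 1 higher, Igfbp1 (log2 fold change 1.41 ± 0.56, adjusted p = 0.0478), while Igf1 was not called (log2 fold change -0.08 ± 0.22, adjusted p = 0.793). The other genes of this order were Slc13a2, a citrate transporter (log2 fold change -4.59 ± 0.62, adjusted p = 2.78e-06), Car1 (log2 fold change -6.33 ± 0.81, adjusted p = 1.3e-06) and Rfx4 (log2 fold change -4.93 ± 1.04, adjusted p = 0.00059), all under 10 CPM in every liver. Ces2b, a carboxylesterase, had 1 count over the 4 livers at 24 hours, against 0.358, 3.87 and 7.63 CPM at 0 hours. Hamp2, which is given above, also belonged to the 10. Igfbp1 was no longer called without 24 hour liver 1 or 2 or 0 hour liver 1, 2, 3, 4 or 6 (adjusted p = 0.0509 to 0.551).

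Bile acid synthesis had list medians of -1.28, -1.61, -0.59 and -0.85 in livers 1 to 4 and -0.27 to 0.12 at 0 hours. Cyp7a1, the rate-limiting enzyme of bile acid synthesis, was at 0, 0.0571, 15.2 and 13.1 CPM, against 15.3, 21.3 and 39.7 CPM at 0 hours. Cyp8b1, which sets the share of cholic acid, was at 0.246, 0.8, 147 and 159 CPM, against 207, 469 and 511 CPM. Both were under 1 CPM in livers 1 and 2, and in livers 3 and 4 they lay below the lowest 0 hour liver. For Cyp7a1 in liver 3 this was only just so (15.24 against 15.27 CPM). Although the groups did not overlap, neither was called (log2 fold change -1.73 ± 0.94, adjusted p = 0.155 for Cyp7a1 and log2 fold change -2.47 ± 1.14, adjusted p = 0.0925 for Cyp8b1). Cyp7b1 of the alternative pathway was called lower (log2 fold change -1.91 ± 0.65, adjusted p = 0.0226), as was Cyp27a1 (log2 fold change -1.62 ± 0.25, adjusted p = 2.13e-05). Nr0b2, the repressor SHP, was at 43.2, 67.9, 34.3 and 21.1 CPM, within the 0 hour range in all 4 livers (19.6, 58.0 and 83.1 CPM as lowest, median and highest), and was not called (log2 fold change -0.44 ± 0.58, adjusted p = 0.585). Of 15 genes of bile acid synthesis, 4 were lower and 0 higher, and the count of lower genes was 2 without liver 2 and 8 without liver 3 or 4. Among the transporters, Slc10a1, which takes up bile acids from blood, was at 60.5, 41.4, 177 and 173 CPM, against 216, 359 and 368 CPM (log2 fold change -1.55 ± 0.33, adjusted p = 0.000612). Slco1a1, an uptake carrier of organic anions, fell further (log2 fold change -3.23 ± 0.73, adjusted p = 0.00117). The exporter Abcb11 was below 0 hours in each liver but short of the fold-change threshold (log2 fold change -0.74 ± 0.28, adjusted p = 0.0393). Slc51b, the basolateral exporter chain OST beta, was at 30.8, 67.9, 1.62 and 1.59 CPM, against 0.377, 0.569 and 1.79 CPM (log2 fold change 5.07 ± 0.98, adjusted p = 0.000225). It rose most in livers 1 and 2. Livers 3 and 4 were within the 0 hour range only through 0 hour liver 2, at 1.79 CPM. They lay above the other 0 hour livers. Abcb1a was called higher as well (log2 fold change 3.61 ± 0.70, adjusted p = 0.000235), making 2 of 13 transporters higher and 4 lower (2 without liver 2). Cyp7b1 was no longer called without 24 hour liver 1 or 2 (adjusted p = 0.0551 to 0.0895).

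Glucose metabolism was called in 9 of 23 genes lower and 3 higher (5 without liver 4). G6pc, which releases glucose from the hepatocyte, was at 9.35, 9.48, 174 and 106 CPM, against 97.4, 425 and 758 CPM (log2 fold change -2.49 ± 0.74, adjusted p = 0.0103). Livers 3 and 4 were within the wide 0 hour range and livers 1 and 2 far below it. The higher genes were Pkm (log2 fold change 1.76 ± 0.28, adjusted p = 2.24e-05), the glucose transporter Slc2a1 (log2 fold change 1.34 ± 0.36, adjusted p = 0.00465) and the lactate dehydrogenase Ldha, which was at 1284, 1528, 1148 and 1255 CPM against 553, 602 and 778 CPM (log2 fold change 1.06 ± 0.20, adjusted p = 0.000139). Ldha was above the 0 hour livers in all 4 livers at a nearly equal level. In nitrogen metabolism 4 of 20 genes of amino acid breakdown and 2 of 9 of the urea cycle and glutamine synthesis were lower and none higher, with list medians of -1.45, -1.52, -0.15 and -0.29 and -1.24, -0.63, 0.07 and -0.20 in livers 1 to 4. Without liver 3 or 4 the count for amino acid breakdown was 9 or 8. Cps1, the entry enzyme of the urea cycle, was at 574, 416, 2598 and 2094 CPM, against 2244, 2426 and 2650.0 CPM. It was far lower in livers 1 and 2, slightly below the 0 hour range in liver 4 and within it in liver 3, and was not called (log2 fold change -0.77 ± 0.33, adjusted p = 0.0688). Otc, the next enzyme of the cycle, was called (log2 fold change -1.68 ± 0.31, adjusted p = 0.000142), and so was Glul, the glutamine synthetase (log2 fold change -1.50 ± 0.45, adjusted p = 0.0105). Slc2a1 was no longer called without 24 hour liver 1 (adjusted p = 0.0892). Ldha was no longer called without 24 hour liver 2 (log2 fold change 0.98). Cps1 was called without 24 hour liver 3 or 4 (adjusted p = 0.00522 to 0.0258, log2 fold change -1.01 to -1.23). Glul was no longer called without 24 hour liver 1 or 2 (adjusted p = 0.0505 to 0.056).

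**Figure D3:**
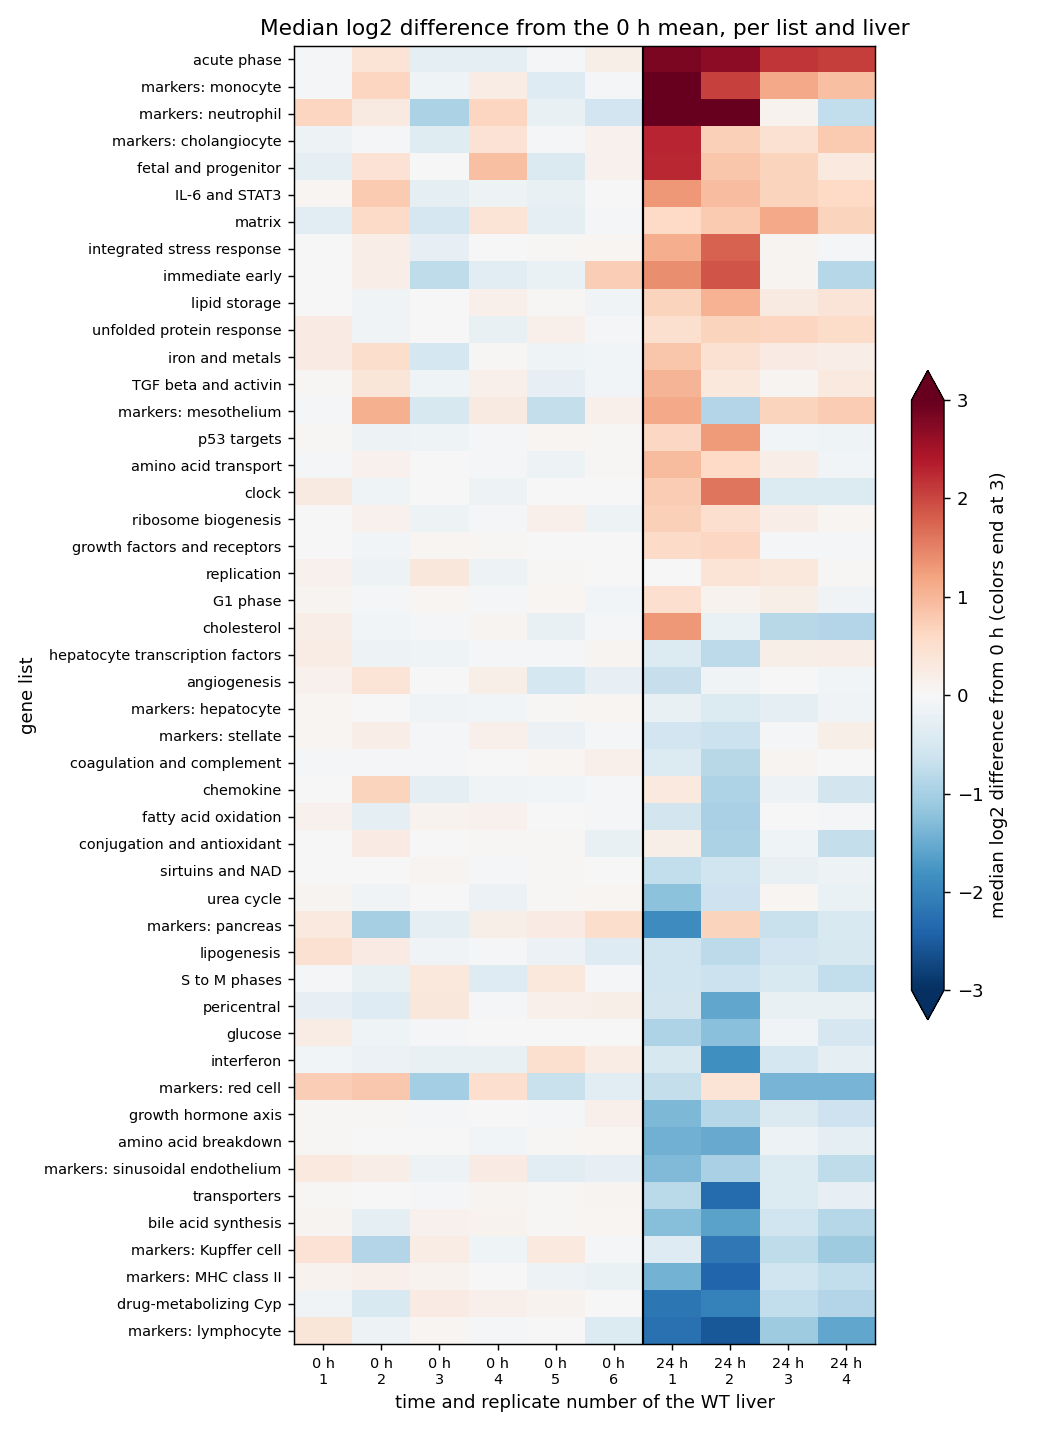
Median log2 difference from the mean of the WT 0 hour livers over the tested genes of each of the 48 lists (rows), in each 0 hour and 24 hour WT liver (columns); red is higher and blue lower. The acute-phase row is red in all 4 livers at 24 hours (2.07 to 2.81), while the rows of neutrophil markers, immediate-early genes and the integrated stress response are red in livers 1 and 2 (1.08 to 3.31) and near or below 0 in livers 3 and 4 (-0.86 to 0.11).

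Fat uptake and storage had 7 of 16 genes higher and none lower, against 8.32% and 7.4% of all genes, and 6 of the 16 had a fold change below 0. Plin2, which coats lipid droplets, was at 993, 2549.9, 552 and 611 CPM, against 298, 358 and 469 CPM (log2 fold change 1.69 ± 0.33, adjusted p = 0.000241). Cidec, which fuses droplets, was at 24.96, 74.6, 3.25 and 2.59 CPM, against 0.48, 0.735 and 1.4 CPM (log2 fold change 5.03 ± 0.73, adjusted p = 8.42e-06). Hilpda, an inhibitor of fat breakdown in the droplet, was at 92.4, 206, 5.55 and 4.28 CPM, against 1.91, 2.39 and 2.69 CPM (log2 fold change 5.03 ± 0.64, adjusted p = 1.29e-06). All 4 livers exceeded the 0 hour livers in these genes, and liver 2 was highest in each. The fatty acid carrier Cd36 rose too (log2 fold change 1.66 ± 0.38, adjusted p = 0.00113). Of 24 genes of fatty acid oxidation 4 were lower, such as Acaa1b (log2 fold change -2.66 ± 0.43, adjusted p = 3.21e-05), and 2 higher. These were Pdk4, a brake on glucose oxidation (log2 fold change 2.89 ± 0.58, adjusted p = 0.000355), and Cyp4a14, a target of PPAR alpha. Cyp4a14 had the opposite order of livers, at 14.5, 22.2, 323 and 359 CPM against 2.56, 30.5 and 75.1 CPM at 0 hours (log2 fold change 2.37 ± 0.87, adjusted p = 0.0338). Livers 3 and 4 were far above the 0 hour livers and livers 1 and 2 within their range. Of 16 genes of fatty acid and triglyceride synthesis, 3 were lower (5 without liver 4), the regulator Mlxipl (log2 fold change -1.56 ± 0.42, adjusted p = 0.00473), Acacb (log2 fold change -1.97 ± 0.33, adjusted p = 4.9e-05) and Scd1 (log2 fold change -1.59 ± 0.50, adjusted p = 0.0133). Cholesterol synthesis differed by liver, with medians over 23 genes of 1.31, -0.19, -0.84 and -0.89. Hmgcs1, an early enzyme of the pathway, was at 886, 169.6, 111 and 68.6 CPM, against 143, 207 and 264 CPM. It was above the 0 hour livers in liver 1, within their range in liver 2 and below it in livers 3 and 4, with no call (log2 fold change 0.64 ± 0.53, adjusted p = 0.368). Only Sc5d and Tm7sf2 of the pathway were called, both lower (-1.25 ± 0.22 and -1.13 ± 0.20). Plin2 was no longer called without 24 hour liver 2 (log2 fold change 0.98). Cyp4a14 was no longer called without 24 hour liver 3 or 4 or 0 hour liver 1, 3, 5 or 6 (adjusted p = 0.0527 to 0.118). Scd1 was no longer called without 24 hour liver 1 (adjusted p = 0.0537).

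Among the 10 genes with the largest rises under the same limits, most had little or no signal at 0 hours. Akr1b7, an aldo-keto reductase, was at 51.2, 181, 2.09 and 0.747 CPM, against 0.0596, 0.0971 and 0.715 CPM at 0 hours (log2 fold change 7.89 ± 1.24, adjusted p = 2.13e-05). Fam83a was at 23.3, 37.02, 2.67 and 2.54 CPM, against 0, 0.0525 and 0.198 CPM (log2 fold change 7.75 ± 0.79, adjusted p = 3.67e-08), and Etv4, an ETS transcription factor, was at 9.35, 12.5, 0.419 and 0.299 CPM, against 0, 0.0621 and 0.215 CPM (log2 fold change 6.04 ± 0.80, adjusted p = 2.44e-06). For these 3 genes livers 1 and 2 were high and livers 3 and 4 low, with every liver above every 0 hour liver. Wfdc3, a further gene of the 10, had the same pattern (log2 fold change 6.12 ± 1.00, adjusted p = 3.78e-05). Reg3b, a secreted lectin that kills bacteria, had 0 counts in the 6 livers at 0 hours and 37.9, 3.37, 10.7 and 3.83 CPM at 24 hours. Against a floor of 3 counts over the 0 hour livers it was 447-fold higher, and 205-fold higher without liver 1, which was highest. The lower 95% exact limit of its ratio over all 4 livers was 363, for counting error only. Tm4sf20, with 1 count over the 6 livers at 0 hours, was at 7.26, 4.91, 0.838 and 0.199 CPM, a ratio of 314 with a 95% exact interval of 55.8 to 12460 that covers counting error only, and 191 without liver 1. Ngp, a granule protein of neutrophils, had 3 counts at 0 hours and was at 9.65, 10.3, 0.367 and 0.448 CPM, a ratio of 165.5 (95% exact interval 56.2 to 806) and 106 without liver 2. Lcn2, Saa2 and Chil3 make up the 10.

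Immune cell markers moved in opposite directions. In bulk tissue, fewer cells of a type and less RNA per cell cannot be told apart. Neutrophil markers were higher in 5 of 8 tested genes, with summed levels of 128, 109, 14.9 and 8.76 CPM in livers 1 to 4 and 7.39 to 24.1 CPM at 0 hours. S100a8, a calcium-binding protein of neutrophils, was at 33.9, 25.7, 2.72 and 1.64 CPM, against 1.28, 3.38 and 5.84 CPM (log2 fold change 2.31 ± 0.86, adjusted p = 0.0375). Retnlg was at 16.1, 20.9, 1.26 and 0.796 CPM, against 0.42, 0.874 and 1.56 CPM (log2 fold change 3.33 ± 0.74, adjusted p = 0.000941). For both, livers 1 and 2 were high and livers 3 and 4 within the 0 hour range, as for the sums. Without liver 1 or liver 2 the count of neutrophil markers was 3. Camp and Ltf, granule proteins that define immature neutrophils, had too few counts to test. Monocyte markers were higher in 5 of 8 genes, with sums of 86.1, 41.1, 14.9 and 12.3 CPM against 6.28 to 8.73 CPM. Chil3, a chitinase-like protein, was at 48.6, 14.5, 2.46 and 0.846 CPM, against 0, 0.0831 and 0.179 CPM (log2 fold change 7.59 ± 0.98, adjusted p = 1.53e-06). Here all 4 livers exceeded 0 hours, as they did for Vcan (log2 fold change 4.39 ± 0.69, adjusted p = 2.13e-05), F13a1 (log2 fold change 3.60 ± 0.64, adjusted p = 8.93e-05) and the chemokine receptor Ccr2 (log2 fold change 1.46 ± 0.38, adjusted p = 0.00403), while Ly6c2 was not called (log2 fold change 0.39 ± 0.68, adjusted p = 0.687). Cd14, a receptor for bacterial lipopolysaccharide, was at 745, 855, 14.7 and 4.03 CPM, against 2.46, 4.54 and 7.2 CPM (log2 fold change 6.44 ± 0.90, adjusted p = 5.39e-06). Cd14 is not on the marker lists, and which cells expressed it was not tested. S100a8 was no longer called without 24 hour liver 1 or 2 or 0 hour liver 2, 3, 4, 5 or 6 (adjusted p = 0.051 to 0.194). Ccr2 was no longer called without 24 hour liver 1 (adjusted p = 0.0719).

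Markers of resident cells were lower in part. Of 12 Kupffer cell and macrophage markers 7 were called lower and none higher, and their sums were 204, 59.4, 182 and 142 CPM, against 145 to 336 CPM, so that livers 1 and 3 were within the 0 hour range. Without liver 2 the count was 3. Clec4f, a lectin of Kupffer cells, was at 32.3, 6.0, 26.2 and 22.6 CPM, against 22.1, 62.7 and 81.5 CPM (log2 fold change -1.45 ± 0.34, adjusted p = 0.00165). Folr2 was at 1.35, 0.4, 1.57 and 1.1 CPM, against 2.5, 5.12 and 7.57 CPM (log2 fold change -2.23 ± 0.40, adjusted p = 0.00011). Liver 2 was lowest for both. MHC class II genes were lower in 4 of 9 (7 without liver 3), led by Cd74 at 23.1, 10.97, 28.4 and 31.2 CPM against 52.3, 69.2 and 75.4 CPM (log2 fold change -1.52 ± 0.31, adjusted p = 0.000427). Of 13 lymphocyte markers only 4 could be tested and 3 were lower, Cd4 (log2 fold change -3.63 ± 0.52, adjusted p = 5.91e-06) of T cells and macrophages and Ighm (log2 fold change -1.42 ± 0.38, adjusted p = 0.00473) and Cd79a (log2 fold change -2.35 ± 0.66, adjusted p = 0.00703) of B cells. Sinusoidal endothelium was lower in 4 of 10 markers (2 without liver 2), with Stab2, a scavenger receptor, at 10.3, 6.46, 20.4 and 11.8 CPM against 24.7, 27.2 and 30.6 CPM (log2 fold change -1.16 ± 0.23, adjusted p = 0.000273). Kdr, the VEGF receptor of these cells (log2 fold change -1.62 ± 0.33, adjusted p = 0.000469), and Wnt2 (log2 fold change -1.97 ± 0.43, adjusted p = 0.000842), a signal they send to hepatocytes, were called lower too. Of 10 stellate cell markers 1 was lower, Lrat (log2 fold change -1.01 ± 0.31, adjusted p = 0.0138), which stores vitamin A, and 3 of 19 interferon-stimulated genes were lower and none higher, Ifit3 (log2 fold change -1.45 ± 0.34, adjusted p = 0.00176), Oasl2 (log2 fold change -1.28 ± 0.26, adjusted p = 0.000375) and Gbp3 (log2 fold change -1.09 ± 0.38, adjusted p = 0.0241). The count was 6 without liver 3, 8 without liver 4 and 5 without 0 hour liver 2, 3 or 4. Biliary markers went up in 4 of 7 tested genes. Sox9, also a gene of progenitor cells, was at 67.0, 110.0, 10.9 and 11.6 CPM, against 3.23, 7.77 and 11.4 CPM (log2 fold change 2.76 ± 0.48, adjusted p = 6.76e-05), and Spp1 was at 399, 148, 49.1 and 61.5 CPM, against 23.9, 36.9 and 49.1 CPM (log2 fold change 2.16 ± 0.42, adjusted p = 0.000253). Both were high in livers 1 and 2 and within or slightly above the 0 hour range in livers 3 and 4. Krt19, the defining keratin of bile ducts, was not called (log2 fold change 0.42 ± 0.58, adjusted p = 0.603). Krt8, listed with the liver capsule but expressed by hepatocytes as well, was at 2237, 1021, 427 and 387 CPM, against 169, 197 and 254 CPM (log2 fold change 2.30 ± 0.41, adjusted p = 9.23e-05), and the capsule marker Msln was not called (log2 fold change 0.76 ± 0.67, adjusted p = 0.396). Stab2 was no longer called without 24 hour liver 2 (log2 fold change -0.95). Lrat was no longer called without 24 hour liver 2 or 0 hour liver 1, 2, 3 or 6 (adjusted p = 0.0214 to 0.0833, log2 fold change -0.71 to -0.99). Gbp3 was no longer called without 24 hour liver 1 or 2 (adjusted p = 0.0579 to 0.12).

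The integrated stress response restrains protein synthesis while it raises genes of amino acid supply. Of 16 genes of the integrated stress response 6 were called higher and none lower, with list medians of 1.08, 1.76, 0.09 and -0.06, and without liver 2 the count was 2. Psat1, of serine synthesis, was at 24.2, 55.7, 1.26 and 1.39 CPM, against 0.36, 0.532 and 0.919 CPM (log2 fold change 5.12 ± 0.81, adjusted p = 2.24e-05). Chac1, which degrades glutathione, was at 8.55, 65.8, 1.99 and 2.34 CPM, against 2.55, 4.73 and 8.4 CPM (log2 fold change 1.96 ± 0.61, adjusted p = 0.0138). Liver 2 was highest in both, and for Chac1 livers 3 and 4 lay below the lowest 0 hour liver. Atf4, the factor at the head of the response, was at 255, 307, 109 and 102 CPM, against 99.8, 112 and 134 CPM, short of the fold-change threshold (log2 fold change 0.77 ± 0.21, adjusted p = 0.00534). Among 16 immediate-early genes 5 were higher. Atf3 was at 54.8, 22.4, 1.83 and 1.99 CPM, against 0.721, 1.46 and 5.36 CPM (log2 fold change 3.23 ± 0.69, adjusted p = 0.000664), and Ier3 was at 103, 182, 2.15 and 1.39 CPM, against 0.66, 1.3 and 14.1 CPM (log2 fold change 4.41 ± 0.93, adjusted p = 0.000562). Livers 3 and 4 were within the 0 hour range for these genes. For Ier3 the top of that range was 0 hour liver 2, which stood apart, and 24 hour liver 3 lay above the other 0 hour livers. Myc, itself an early gene after PHx, was at 23.2, 16.5, 9.64 and 4.73 CPM, against 1.92, 4.69 and 34.3 CPM, with no call (log2 fold change 0.34 ± 0.57, adjusted p = 0.667). Among 13 amino acid transporters 6 were higher, including Slc7a11 (log2 fold change 4.67 ± 0.99, adjusted p = 0.000601) and Slc7a5 (log2 fold change 1.02 ± 0.35, adjusted p = 0.0226), and without liver 1 or liver 2 the count was 2. The unfolded protein response of the endoplasmic reticulum was called higher in 2 of 16 genes, Manf (log2 fold change 1.2 ± 0.29, adjusted p = 0.0022) and Xbp1 (log2 fold change 1.21 ± 0.25, adjusted p = 0.000474). A further 11 of the 16 had an adjusted p under 0.05 but were short of the fold-change threshold. Of all 14980 genes, 5113 had such an adjusted p, called ones included. The list median was nearly the same in each liver, at 0.47, 0.67, 0.65 and 0.55. Chac1 was no longer called without 24 hour liver 2 (adjusted p = 0.785). Slc7a5 was no longer called without 24 hour liver 1 or 2 or 0 hour liver 1 or 5 (adjusted p = 0.0464 to 0.339, log2 fold change 0.49 to 1.01). Manf was no longer called without 24 hour liver 2 (adjusted p = 0.055). Xbp1 was no longer called without 24 hour liver 2 (log2 fold change 0.82).

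Among 22 genes of the G1 phase 4 were higher and 1 lower, against 8.32% and 7.4% of all genes. Ccnd1, cyclin D1, was at 45.0, 6.86, 63.8 and 66.2 CPM, against 6.78, 15.2 and 19.8 CPM at 0 hours (log2 fold change 1.70 ± 0.50, adjusted p = 0.00893). Livers 1, 3 and 4 were at more than 2 times the highest 0 hour liver, and liver 2 was at the low end of the 0 hour range. Ccne1, cyclin E1, was at 9.16, 13.997, 1.94 and 1.69 CPM, against 0.198, 0.478 and 3.06 CPM (log2 fold change 2.88 ± 0.56, adjusted p = 0.000232), and Cdc25a, a phosphatase that activates its kinase, was at 15.003, 15.9, 3.35 and 5.13 CPM, against 1.67, 2.15 and 2.76 CPM (log2 fold change 2.14 ± 0.30, adjusted p = 5.27e-06). Both were highest in livers 1 and 2, and Cdc25a was above 0 hours in all 4 livers. E2f3, a factor that drives the genes of DNA synthesis, was the other gene called higher (log2 fold change 1.22 ± 0.29, adjusted p = 0.0016), and E2f7, a repressor of the cycle, was lower (log2 fold change -1.54 ± 0.51, adjusted p = 0.0182). Cdkn1a, the inhibitor p21, was at 129.7, 214, 90.3 and 69.2 CPM, against 53.8, 65.6 and 143 CPM, with no call (log2 fold change 0.65 ± 0.35, adjusted p = 0.152). Of 27 DNA replication genes 3 were higher and 2 lower, which is near the shares over all genes (8.32% and 7.4%). Fen1, a nuclease of lagging-strand synthesis, was at 18.4, 15.6, 5.03 and 5.48 CPM, against 1.89, 2.91 and 3.4 CPM (log2 fold change 2.01 ± 0.29, adjusted p = 8.21e-06), and Chaf1b and Dnmt1 rose by 1.98 ± 0.39 and 1.05 ± 0.25 on the log2 scale. The 2 called lower were Mcm10, at 1.48, 4.28, 38.8 and 22.1 CPM against 54.6, 94.6 and 107 CPM (log2 fold change -2.39 ± 0.60, adjusted p = 0.00299), and Tk1, at 1.23, 0.8, 7.38 and 7.32 CPM against 14.1, 16.9 and 24.7 CPM (log2 fold change -2.07 ± 0.44, adjusted p = 0.000685). Mcm5 and Mcm6 of the replicative helicase were at 1.54, 2.57, 5.5 and 2.24 CPM and at 6.09, 5.6, 9.11 and 4.43 CPM, highest in liver 3 for both, with no call (log2 fold change 0.88 ± 0.38, adjusted p = 0.0714 and log2 fold change 0.76 ± 0.30, adjusted p = 0.0499). E2f3 was no longer called without 24 hour liver 1 (log2 fold change 0.85). E2f7 was no longer called without 24 hour liver 2 (adjusted p = 0.0613). Dnmt1 was no longer called without 24 hour liver 1 or 2 or 0 hour liver 5 (log2 fold change 0.75 to 0.98). Mcm5 was called without 24 hour liver 1 or 0 hour liver 1 (adjusted p = 0.045 to 0.0486, log2 fold change 1.03 to 1.10).

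None of 19 genes of the S to M phases was called higher by edgeR or DESeq2 or had a higher value at an unadjusted p under 0.05, and 17 of the 19 had a fold change below 0. Mki67, the proliferation marker Ki-67, was at 0.922, 0.514, 0.576 and 0.199 CPM, against 1.03, 1.33 and 2.34 CPM (log2 fold change -1.40 ± 0.56, adjusted p = 0.0499), which is a fall at few counts. Cdk1, the kinase of mitosis, was at 0.738, 0.914, 0.943 and 0.647 CPM, against 0.664, 1.31 and 1.61 CPM (log2 fold change -0.52 ± 0.43, adjusted p = 0.364), and Ccna2 at 0.369, 0.571, 0.471 and 0.0996 CPM, against 0.3, 0.82 and 1.02 CPM (log2 fold change -1.03 ± 0.56, adjusted p = 0.15). All 4 livers were below the median of the 0 hour livers for these genes. Whether a rise confined to few cells would be detected at levels near 1 CPM was not tested. Among the ligands of EGFR, Hbegf was at 11.1, 26.3, 0.681 and 0.846 CPM, against 0.385, 0.753 and 1.31 CPM (log2 fold change 3.63 ± 0.84, adjusted p = 0.00152), and Btc rose (log2 fold change 2.06 ± 0.53, adjusted p = 0.00343), whereas Egfr (log2 fold change -0.40 ± 0.26, adjusted p = 0.232) and Met (log2 fold change -0.28 ± 0.19, adjusted p = 0.245) were not called. Areg, a further ligand, had 0 counts at 0 hours and 1.29, 0.229, 0 and 0 CPM at 24 hours, most of it in liver 1. Against the floor of 3 counts it was at least 11.7-fold higher with liver 1 and 2.41-fold without it. Of 17 targets of p53 4 were higher (1 without liver 2, 2 without 0 hour liver 3), Tnfrsf10b (log2 fold change 3.48 ± 0.59, adjusted p = 5.39e-05), Gdf15 (log2 fold change 2.28 ± 0.83, adjusted p = 0.0326), Btg2 (log2 fold change 2.19 ± 0.56, adjusted p = 0.00326) and Gadd45a (log2 fold change 1.60 ± 0.55, adjusted p = 0.023), while Mdm2 (log2 fold change 0.41 ± 0.18, adjusted p = 0.0761) was not called. Mki67 was no longer called without 24 hour liver 2, 3 or 4 or 0 hour liver 1, 2, 3, 4 or 5 (adjusted p = 0.0551 to 0.134). Btc was no longer called without 24 hour liver 1 (adjusted p = 0.496). Gdf15 was no longer called without 24 hour liver 2 or 0 hour liver 1, 2, 3 or 4 (adjusted p = 0.0516 to 0.621). Btg2 was no longer called without 24 hour liver 2 (adjusted p = 0.123). Gadd45a was no longer called without 24 hour liver 2 or 0 hour liver 3 (adjusted p = 0.0522 to 0.562).

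**Figure D4:**
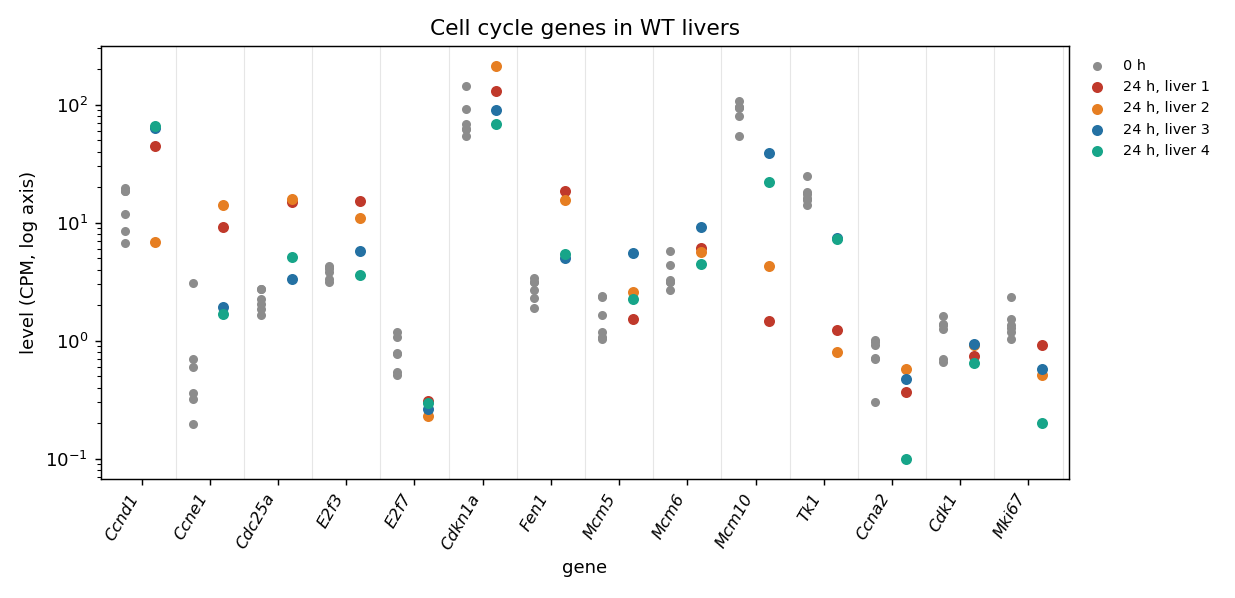
Level of 14 cell cycle genes in each WT liver at 0 hours (gray) and 24 hours (colors, numbered 1 to 4), in CPM on a log axis, with values of 0 drawn at 0.02. The cyclin D1 gene is high in livers 1, 3 and 4, Ccne1 and Cdc25a are highest in livers 1 and 2, Mki67 is below the 0 hour livers, and Ccna2 and Cdk1 overlap with them.

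Brakes on growth and matrix genes were mixed. Fst, follistatin, which binds activins, was at 26.7, 34.5, 3.25 and 3.83 CPM, against 1.13, 2.01 and 4.85 CPM (log2 fold change 2.83 ± 0.56, adjusted p = 0.000284), and Bmp2 of the endothelium fell (log2 fold change -1.72 ± 0.36, adjusted p = 0.000529). Of 15 genes of TGF beta and activin signaling, 3 were higher and 1 lower, and of 19 matrix genes 5 were higher (8 without liver 1) and none lower. Timp1, an inhibitor of matrix proteases, was at 13.1, 8.46, 7.07 and 2.69 CPM, against 0.066, 0.285 and 2.25 CPM (log2 fold change 3.56 ± 0.62, adjusted p = 7.12e-05). Fn1, plasma fibronectin, was at 2234, 2186, 1756 and 1370.4 CPM, against 659, 758 and 816 CPM (log2 fold change 1.33 ± 0.17, adjusted p = 1.09e-06), and Mmp14 at 112, 121, 38.5 and 37.8 CPM, against 13.2, 17.9 and 21.1 CPM (log2 fold change 2.16 ± 0.26, adjusted p = 6.49e-07). These 3 genes were above the 0 hour livers in all 4 livers. The chemokine Cxcl14 was at 181, 62.0, 2.46 and 3.04 CPM, against 0.358, 1.38 and 2.05 CPM (log2 fold change 5.61 ± 0.91, adjusted p = 3.04e-05), and 3 of 21 chemokine genes were higher (5 without liver 4) and 2 lower, against 8.32% and 7.4% of all genes. Among 18 clock genes 3 were higher, Per1 (log2 fold change 2.04 ± 0.46, adjusted p = 0.0011), Dbp (log2 fold change 2.36 ± 0.57, adjusted p = 0.0021) and Ciart (log2 fold change 2.43 ± 0.73, adjusted p = 0.0111). The list medians were 0.77, 1.60, -0.40 and -0.42, so livers 1 and 2 and livers 3 and 4 lay on opposite sides of 0 hours. Without liver 2 there was 1 clock gene higher and 1 lower, and without liver 3 there were 6 and 1. Without liver 4 or 0 hour liver 3 there were 5 higher. Of 12 transcription factors of hepatocytes 0 were called by edgeR, 1 by DESeq2 (lower) and 2 at an unadjusted p under 0.05, Hnf4a being at 413, 324, 549 and 522 CPM against 371, 495 and 612 CPM (log2 fold change -0.14 ± 0.18, adjusted p = 0.559). Sirt1 was at 23.1, 11.3, 8.8 and 11.2 CPM, against 8.35, 12.1 and 15.7 CPM (log2 fold change 0.20 ± 0.23, adjusted p = 0.531), and Nampt, an enzyme of NAD salvage, was at 119.5, 181, 18.2 and 17.3 CPM, against 25.2, 29.5 and 37.01 CPM (log2 fold change 1.47 ± 0.49, adjusted p = 0.0198). It was above the 0 hour range in livers 1 and 2 and below it in livers 3 and 4. Per1 was no longer called without 24 hour liver 2 (adjusted p = 0.0629). Ciart was no longer called without 24 hour liver 2 (adjusted p = 0.775). Nampt was no longer called without 24 hour liver 1 or 2 (adjusted p = 0.076 to 0.278).

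The remaining lists had counts that are set against 8.32% higher and 7.4% lower over all genes, and several are at or below these shares. Of 21 coagulation and complement factors 1 was higher, Pros1 (log2 fold change 1.19 ± 0.17, adjusted p = 5.82e-06), and 3 were lower, F13b, C6 and C8b (1 without liver 1 or 2). Of 12 genes expressed near the central vein 2 were lower, Glul and the ammonium carrier Rhbg (log2 fold change -1.68 ± 0.44, adjusted p = 0.00415). Of 14 genes listed with angiogenesis 1 was higher, Id1 (log2 fold change 2.11 ± 0.39, adjusted p = 0.000142), and 2 lower, the Kdr and Wnt2 given above. Ribosome biogenesis had 1 of 21 genes higher, Gar1 (log2 fold change 1.12 ± 0.23, adjusted p = 0.000473). A further 9 of the 21 had an adjusted p under 0.05 but were short of the fold-change threshold, and 20 of the 21 had a fold change above 0. Of all 14980 genes, 5113 had an adjusted p under 0.05, called ones included. The list medians were 0.71, 0.50, 0.19 and 0.07 in livers 1 to 4 and -0.15 to 0.14 at 0 hours. Of 9 fetal and progenitor genes 4 were higher (1 without liver 1, 2 without 0 hour liver 3), Sox9, Epcam (log2 fold change 1.34 ± 0.45, adjusted p = 0.0216), Cd24a (log2 fold change 1.40 ± 0.49, adjusted p = 0.0265) and the fetal plasma protein Afp at 3.81, 1.66, 1.1 and 1.34 CPM against 0.46, 0.543 and 0.898 CPM (log2 fold change 1.67 ± 0.45, adjusted p = 0.00484). Hepatocyte markers had 2 of 8 lower, Alb (log2 fold change -1.22 ± 0.24, adjusted p = 0.000286) and Ttr (log2 fold change -1.42 ± 0.28, adjusted p = 0.000245), and of 5 red cell markers 1 was lower, the heme synthesis gene Alas2 (log2 fold change -1.07 ± 0.27, adjusted p = 0.0029). With Areg, Hbegf and Btc 3 of 10 growth factors and receptors were higher (1 without liver 1), and with Nampt and the nicotinamide methyltransferase Nnmt (log2 fold change 1.89 ± 0.34, adjusted p = 0.00011) 2 of 13 genes of sirtuins and NAD metabolism. Gar1 was no longer called without 24 hour liver 1 or 2 (log2 fold change 0.91 to 0.94). Epcam was no longer called without 24 hour liver 1 or 0 hour liver 3 (adjusted p = 0.0501 to 0.73). Cd24a was no longer called without 24 hour liver 1 or 2 or 0 hour liver 3, 5 or 6 (adjusted p = 0.0504 to 0.159). Afp was no longer called without 24 hour liver 1 (adjusted p = 0.0697). Alas2 was no longer called without 24 hour liver 1 (log2 fold change -0.77).

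The 10 genes with the widest spread between the livers at 24 hours, among those with a mean of at least 10 CPM, were chosen for that spread and are given as a description. Of these, 9 are reported here. Besides Cyp8b1, Cd14, Akr1b7 and Ier3 above, they were Sult1e1, Acot5, Keg1, Hsd3b3 and Slc10a6. Sult1e1, the estrogen sulfotransferase, was at 83.4, 117, 0.262 and 0.348 CPM, and Slc10a6, a carrier of steroid sulfates, at 43.4, 36.8, 0.576 and 0.548 CPM. Keg1 was at 0.615, 0.4, 43.9 and 51.7 CPM and Hsd3b3 at 2.58, 0.686, 83.3 and 98.0 CPM. In 8 of the 9 genes livers 1 and 2 stood together against livers 3 and 4. The exception was Acot5, a peroxisomal thioesterase, at 0.553, 96.7, 0.0524 and 0 CPM, which was high in liver 2 alone.

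**Figure D5:**
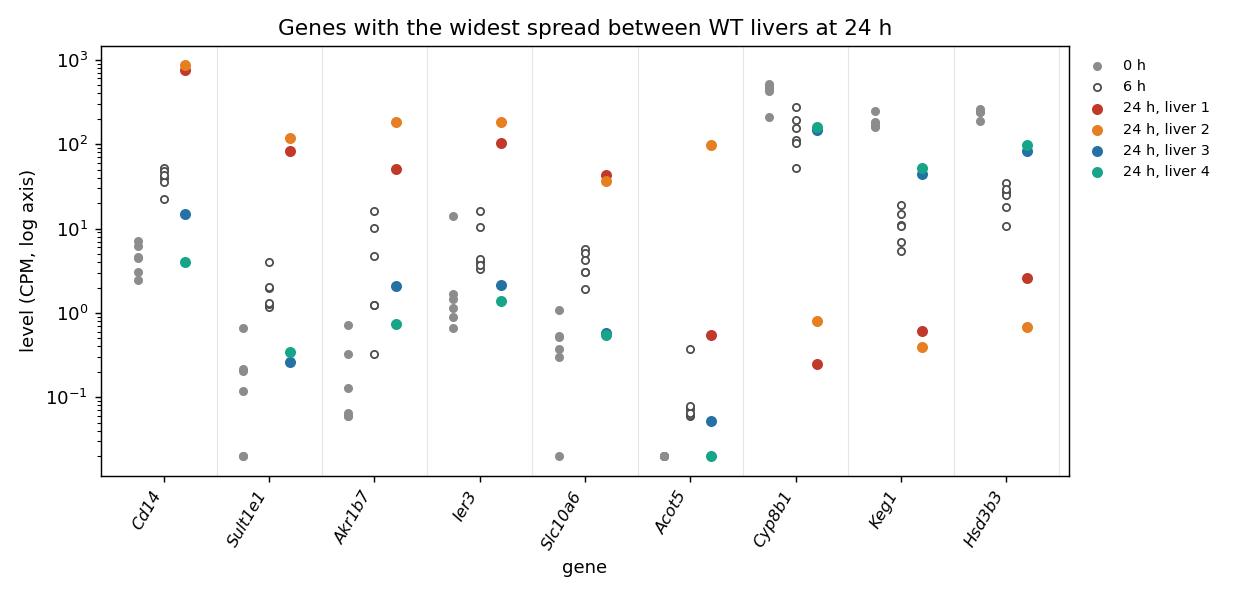
Level of 9 of the 10 genes with the widest spread between WT livers at 24 hours (colors, numbered 1 to 4), beside the 0 hour (gray) and 6 hour (white) WT livers, in CPM on a log axis, with values of 0 drawn at 0.02. For Cd14, livers 1 and 2 are at 745 and 855 CPM and livers 3 and 4 at 14.7 and 4.03 CPM.

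Against the 6 WT livers at 6 hours, 1073 genes (7.16%) were called at 24 hours, 665 higher (4.44%) and 408 lower (2.72%). Without liver 1 the count was 661. The same 4 livers enter here, so this is not independent of the comparison with 0 hours. Acute-phase genes had 0 of 21 called either way by edgeR, 1 by DESeq2 (lower) and 4 at an unadjusted p under 0.05, and in this comparison their median log2 fold change was -0.0016. For Lcn2 the 6 hour livers were at 1912, 3739 and 4511 CPM (lowest, median and highest), and livers 1 and 2 lay above that range, liver 3 within it and liver 4 below it (log2 fold change 0.77 ± 0.51, adjusted p = 0.32). Cholesterol synthesis genes were higher than at 6 hours in 12 of 23, and in 2 without liver 1. The list medians of livers 3 and 4 (-0.84 and -0.89 against 0 hours) lay within those of the 6 hour livers (-1.97 to -0.38), and livers 1 and 2 lay above. Hmgcs1 was at 23.3, 44.4 and 83.4 CPM at 6 hours (log2 fold change 2.79 ± 0.55, adjusted p = 0.000806). Replication genes were higher in 6 of 27, such as Mcm5 (log2 fold change 1.71 ± 0.39, adjusted p = 0.00339) and Mcm6 (log2 fold change 1.10 ± 0.30, adjusted p = 0.0121). Fat uptake and storage genes were lower in 5 of 16 (3 without liver 1) and higher in 2. Cidec had been at 50.8, 76.0 and 226 CPM at 6 hours (log2 fold change -2.19 ± 0.66, adjusted p = 0.0219). Clock genes differed in both directions, 4 higher (2 without liver 2 or 6 hour liver 3 or 6) and 4 lower (2 without liver 3), with Dbp lower than at 6 hours (log2 fold change -2.03 ± 0.54, adjusted p = 0.00978) and Arntl higher (log2 fold change 1.56 ± 0.44, adjusted p = 0.014). The labels do not give the time of day at which livers were taken. The difference for Cidec was no longer called without 24 hour liver 1, 3 or 4 or 6 hour liver 2 or 3 (adjusted p = 0.0504 to 0.0696), that for Hmgcs1 without liver 1 (adjusted p = 0.0514) and that for Mcm6 without liver 3 (log2 fold change 0.90).

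The change from 0 to 24 hours was also set against that of the SIRTintKO mice. The test of the difference (the interaction) called 1 of 14980 genes (0.00668%), with 1904 genes (12.7%) at an unadjusted p under 0.05. That gene was Gskip, a binding partner of the kinase GSK3 beta. It was at 6.39, 5.26, 6.86 and 7.27 CPM in WT livers at 24 hours and 6.03, 6.76 and 8.78 CPM at 0 hours (lowest, median and highest), and at 9.01, 15.5 and 23.9 CPM in the 7 SIRTintKO livers at 24 hours. Its log2 fold change from 0 to 24 hours was -0.12 ± 0.18 in WT and 1.33 ± 0.15 in SIRTintKO livers, a difference of 1.44 ± 0.23 (adjusted p = 0.0107). The call was lost with only the groups compared (adjusted p = 0.0595), with the replicate block (adjusted p = 0.0517) and in the test against a log2 fold change of 1. Without WT 24 hour liver 2 no gene was called by edgeR (2084 at an unadjusted p under 0.05, Gskip adjusted p = 0.0851), and without liver 1, 3 or 4 the count was 75, 2 or 3. Without 1 of the SIRTintKO livers at 24 hours it rose to 205 at most (replicate 5) and was 2 without replicate 1 or 4. The count thus rests on single livers, and a p that misses the threshold does not show that the genotypes responded alike.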

How the data were processed

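RNA sequencing of whole liver was deposited by the authors as a table of expected counts for 78298 gene IDs in 34 libraries. The submitters' processing notes name STAR, Salmon and the genome build GRCm39, and the annotation release and tool versions are not given in the sources used here. A further column (1) of the table matched no sample and was not used. The expected counts, of which 4.97% were not whole, were rounded. Gene symbols came from the IDs, because the letter x is missing from the gene names of the table, and 14123 of the 14980 tested IDs had a symbol.

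A negative binomial model with 1 mean per group was fitted to all 34 libraries in edgeR 4.0.16 (R 4.3.3, limma 3.58.1) with TMM scaling and the filterByExpr filter by group. Quasi-likelihood F tests were adjusted by Benjamini-Hochberg over all tested genes, and a gene was called where its adjusted p was under 0.05 and its log2 fold change lay beyond 1 in either direction. The SE is the absolute log2 fold change divided by the root of F. Log2 CPM used a prior count of 2. The labels do not say how livers were assigned to library preparation. SE and p-values rest on a spread between livers that was estimated over all 34 libraries together (common BCV 0.302). The WT livers at 24 hours alone were more spread (0.484). Depth is given with the results, and counting limits use a floor of 3 counts and 95% intervals. The code was tested on simulated data. Alternatives were other scalings and filters, only the groups compared, a test against a log2 fold change of 1, a replicate block, DESeq2 1.42.0 and leaving out livers.

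Genes were named by rule. Among called genes without overlap of the groups and with a mean of at least 1 CPM, it took the 10 largest rises and the 10 largest falls, leaving out symbols of the Gm, Rik and pseudogene kinds. It also took key members and extreme called members of 48 gene lists, and the 10 genes with the widest spread at 24 hours with a mean of at least 10 CPM. Members and lists were chosen with earlier results of these data known. Promoters came from RefSeq (GRCm38.p6), with 17 of 21 acute-phase genes matched by symbol. Results for some genes that the rule named are not reported here.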

Additional observations from a re-analysis of the deposited data

Results flagged for a closer look

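In groups of 4 or 6 livers, the highest or lowest value was set against the rest by Dixon's criterion, for the 83 genes whose livers are given one by one. For independent, normally distributed values, chance gives such a value in about 1 of 20 groups. The genes here share the same livers and some were chosen for their spread, so that rate is only a rough guide. Of the 168 groups of values checked, which include the counts of genes over 2-fold per liver, 21 groups of gene values had one. The 0 hour liver 2 accounted for 14 of the 21. It was highest of the 0 hour livers for Ccne1 (3.06 CPM), Fst (4.85 CPM), Ier3 (14.1 CPM), Ldha (778 CPM), Mt2 (838 CPM), Osmr (10.8 CPM), Saa2 (1224 CPM), Slc51b (1.79 CPM), Stat3 (179 CPM), Timp1 (2.25 CPM) and Tm4sf20 (0.0511 CPM, 1 count). It was lowest for Cyp8b1 (207 CPM), Hsd3b3 (188 CPM) and Slc10a1 (216 CPM). Its 1333 genes over 2-fold from the other 0 hour livers stood apart as well. For the 14 named genes its value lay on the side of the other 0 hour livers that the livers at 24 hours took on average. For Ccne1, Fst and Slc51b it alone placed livers 3 and 4 at 24 hours within the 0 hour range.

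Among the other 0 hour livers, liver 1 was highest for Keg1 (244 CPM), liver 4 for Etv4 (0.215 CPM) and liver 5 for Sult1e1 (0.66 CPM). At 24 hours liver 2 was highest for Acot5 (96.7 CPM) and Chac1 (65.8 CPM), and liver 1 for Hmgcs1 (886 CPM) and Orm2 (3225 CPM). By the edgeR interaction test, the change of Gskip differed between the genotypes by a log2 value of 1.44 (adjusted p = 0.0107), higher at 24 hours in the SIRTintKO livers. The call was lost without WT 24 hour liver 2 (adjusted p = 0.0851), with only the groups compared (adjusted p = 0.0595) and with the replicate block (adjusted p = 0.0517).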

How the results depend on the processing

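Of the 138 calls of named genes, 66 kept their side of the threshold and their direction in all alternatives that gave a value, and the reversals below came only from leaving out 1 liver. The 2354 calls between 24 and 0 hours became 1167 with at least 10 counts in every library (fewer genes tested) and 670 in the test against a log2 fold change of 1. They became 1615 with only the groups compared, where 18 calls of named genes were lost, and 1552 to 3117 when 1 liver was left out. The 1073 calls against 6 hours became 570 and 80 under the first 2 of these, 406 with only the groups compared and 661 to 1370 without 1 liver. The single interaction call became 8 with every gene that had a count, 90 in DESeq2, 0 in the test against a log2 fold change of 1 (332 at an unadjusted p under 0.05) and 0 to 205 without 1 liver. The BCV was 0.426 to 0.515 at 24 hours and 0.158 to 0.221 at 0 hours without 1 liver. Scaling by RLE or the upper quartile moved the median of all genes by at most 0.0405 on the log2 scale. For these changes the cause was not tested.

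Leaving out pairs of the livers at 24 hours was added after seeing the data. Without livers 1 and 2 there were 516 calls against 0 hours and a BCV of 0.128, and without livers 3 and 4 there were 4777 calls. For the other pairs the BCV lay between 0.372 and 0.601. For 6 genes the sign of the log2 fold change turned when 1 liver was left out. Their values ran from -0.75 (without 24 hour liver 1) to 0.97 for Hmgcs1, from -0.21 to 0.048 (without liver 1) for Igf1, from -0.29 (without liver 1) to 0.67 for Ly6c2, from -0.034 (without liver 1) to 1.2 for Myc, from -0.17 (without liver 1) to 0.37 for Sirt1 and from -0.24 (without liver 2) to 2.36 for Chac1.

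Same-numbered livers of the groups had correlations across genes of -0.01, 0.08, 0.1 and 0.01. Those of differently numbered livers ran from -0.116 to 0.136. These values gave no sign of pairing by number, but correlations this close together cannot exclude it. With the replicate block 2167 genes were called against 0 hours, 771 against 6 hours and 0 in the interaction (1618 at an unadjusted p under 0.05 in edgeR). With 4 livers this far apart, changes near the threshold were not resolved, and genes near 1 CPM rest on few counts per library.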

Other observations

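The SIRTintKO livers at 24 hours were also spread, with 2168 to 5432 genes over 2-fold from the mean of the WT 0 hour livers. Cyp8b1 was at 0.305, 1.14 and 45.3 CPM in them (lowest, median and highest) and Cd14 at 32.6, 132 and 661 CPM. Cyclin D1, Ccnd1, was at 64.1, 116 and 159 CPM and Lcn2 at 1952, 5561 and 13756 CPM. These values are given as a description.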
